A study of Mus musculus with 13 samples.

Results

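The proximal daughter cells of the first division are 83 of the 1449 single CD8+ T cells measured in the series, taken as every cell column that carries the proximal heading, with no use of the measured values. They were sorted from the spleens of C57BL/6J mice at day 2 of an infection with Listeria monocytogenes expressing ovalbumin, and form 1 of 13 populations with 1 sample each. The cells carry the transgenic OT-1 receptor, which recognises ovalbumin, and the CD45.1 allele, so that transferred cells can be told from the CD45.2 recipient. The 3 populations used beside them were 149 unactivated naive OT-1 cells (day 0), 144 cells after their first division (day 2, from recipients of 2000000 cells labelled with the division dye CFSE) and 143 cells of the day 3 response, with no subset named (from recipients of 20000 cells). How many cells were transferred for the proximal sample, the gate that separated proximal from distal daughters, the number of mice and the array of each cell are not given by the labels. Every comparison below shares the same proximal cells.

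When a naive CD8+ T cell meets an antigen-presenting cell it enlarges, changes its receptors for homing and cytokines, and divides. In the model of asymmetric division, the daughter that lies next to the antigen-presenting cell, the proximal one, takes up more of the signalling contact than the distal one and is described as the more effector-prone of the pair. Naive cells are known for KLF2, a transcription factor that holds them in quiescence and in circulation, and for the survival receptor IL-7Rα. Activated cells are known for MYC, which drives growth and metabolism, for the interleukin 2 receptor chains, and later for granzymes.

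Each cell was measured by quantitative PCR with 95 assay rows (94 assays, with Il2 in 2 rows). The deposited values grow with the amount of transcript and are 0 where there was no signal. They are read here as 40 minus the threshold cycle, so that 1 unit is 1 cycle, or a 2-fold difference in template under perfect amplification. A gene is called detected in a cell when its value is above 0, and its share is the percentage of cells in which it was detected, with an exact 95% binomial interval that covers counting error only. With 1 sample a population there is no replicate, cells are not replicates, and no test was run. Differences are given by size instead, as 20 percentage points in share or 1 cycle in the mean level, where the level is the value above a limit of 12.

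Across the series 83.4% of values were 0, and 80.8% of the proximal values were. The proximal cells gave signal in a median of 18.0 assays each (quartiles 14.5 and 22.0, range 3 to 31), against medians of 12 in naive, 18.0 in first-division and 16.0 in day 3 cells. The earlier and later columns of a population, in file order, differed by at least 20 points in 5 assays among naive, 9 among first-division and 5 among day 3 cells, but in 2 among proximal cells (Tcf7, found in 70.7% of 41 earlier and 95.2% of 42 later cells, and Foxp1, in 46.3% and 26.2%). Rpl35, a ribosomal protein gene, was at 0 in every proximal cell and in every earlier naive and first-division column, and was found in 20.0% and 38.9% of the later ones. Differences from another population are therefore also given against its earlier and later columns alone where these disagree.

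Of the lymphocyte identity genes, Ptprc and Cd8a were common, Thy1 was read at low values and Cd44 was rare. R18s, Actb and Gapdh, the ribosomal RNA, cytoskeletal and glycolytic reference genes, were detected in all 83 proximal cells, with median values of 26.1, 20.0 and 15.6 cycles. Ptprc, which encodes CD45, was found in 98.8% (interval from 93.5%) and Cd8a, the CD8 chain used for sorting, in 65.1% (53.8 to 75.2%). Thy1 was found in 50.6% of proximal cells but reached a value of 12 in 1.20%. That value was reached in 18.1% of naive, 28.5% of first-division and 29.4% of day 3 cells. Cd44 was found in 3 proximal cells (3.61%), and in 0% of naive, 4.17% of first-division and 3.50% of day 3 cells. It reached 10% in none of the 13 populations, so its low share does not set the proximal cells apart. Cd4 and Foxp3, the genes of helper and regulatory T cells, were each found in 0 of 83 cells, which allows a share of up to 3.61% by a limit of 3 cells, or 4.35% by the exact interval. As Rpl35 shows, a 0 bounds detection by the assay and not the transcript itself. Gata3, the third of the 3 measured genes of other T cells, was found in 3 cells. No measured gene stands for the gate itself, so the proximal label could be set only beside genes named for such cells. They were chosen with earlier results of these data known, so finding them is no independent support for the label.

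Of those 5 genes, 4 were found in at least 48.2% of the proximal cells. Ccr7, the receptor that guides T cells into lymph nodes, was detected in 54 of 83 cells (65.1%), with values from 10.1 to 15.6 cycles and a median of 13.0. Myc was detected in 51 cells (61.4%, 50.1 to 71.9%), at 14.2 to 17.8 cycles with a median of 15.7. Cxcr3, the chemokine receptor that draws activated T cells to sites of interferon response, was detected in 40 cells (48.2%, 37.1 to 59.4%), at 11 to 18.0 cycles with a median of 15.1. Every detected Myc value lay above the limit of 12, while the share of proximal cells with Ccr7 at or above that limit was 49.4%. Il2rb, the β chain through which T cells receive interleukin 2 and interleukin 15, was also found in 40 cells (48.2%), at 13.8 to 17.5 cycles with a median of 15.4. Gzmb, the cytotoxic protease granzyme B, was found in 14 cells (16.9%, 9.54 to 26.7%), at 12.1 to 16.2 cycles with a median of 14.1. Gzmb is thus the rare member of the 5, in a share between the 7.38% of naive and the 21.7% of day 3 cells.

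**Figure D1:**
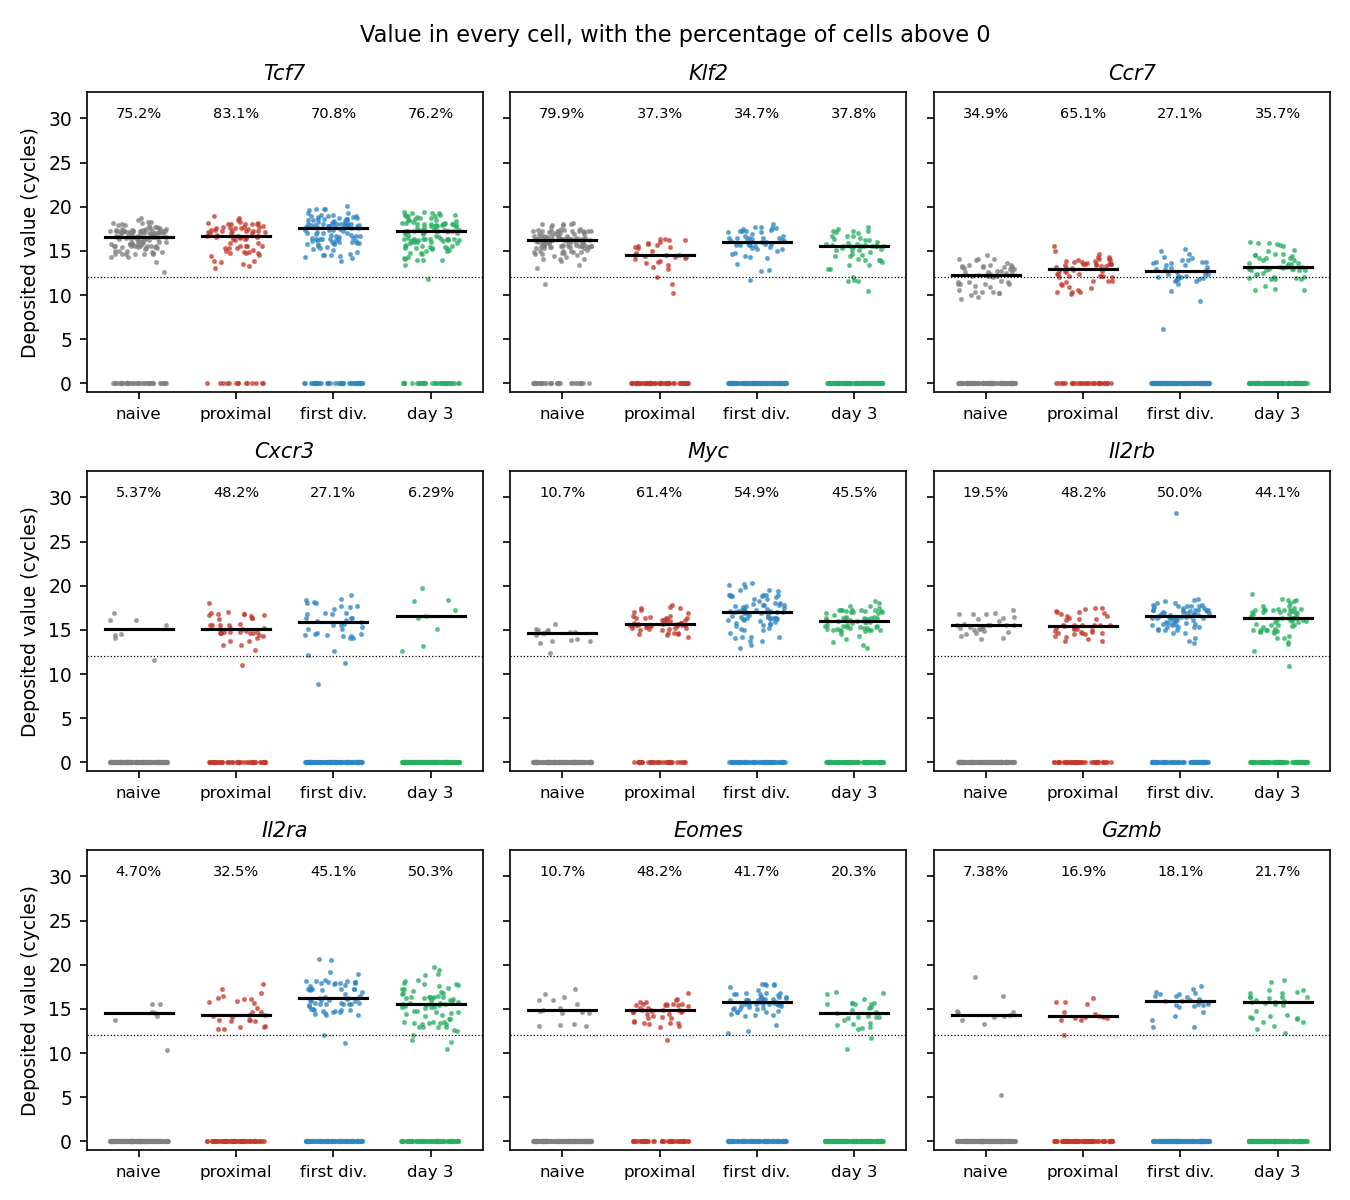
Deposited value of 9 genes in every cell (vertical axis, cycles, 0 for no signal) of the naive, proximal, first-division and day 3 populations; black bars are medians of detected cells, the dotted line is the limit of 12, and the percentages are shares of cells above 0. Cxcr3 was found in 48.2% of proximal against 27.1% of first-division and 6.29% of day 3 cells, while Klf2 was found in 37.3% of proximal against 79.9% of naive cells.

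The sequence before the start of a marker gene can be shown for Cxcr3 and Gzmb, the 2 of the 5 with an entry in the RefSeq promoter table (build GRCm38.p6). They are shown as the markers for which a promoter entry was at hand, and because the panel measured Runx1 and Runx2, relatives of the CD8 lineage factor RUNX3. Each line gives the 250 bases before the start site, 5′ to 3′ on the strand of the gene, with the RUNX core motif TGTGGT or its reverse complement ACCACA in capitals.
Cxcr3 (chrX:101734148-101734397, minus strand): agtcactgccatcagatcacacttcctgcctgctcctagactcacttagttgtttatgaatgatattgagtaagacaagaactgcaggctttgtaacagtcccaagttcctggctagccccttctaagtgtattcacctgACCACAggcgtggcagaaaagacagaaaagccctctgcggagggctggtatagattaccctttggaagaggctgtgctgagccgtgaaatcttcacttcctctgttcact
Gzmb (chr14:56262335-56262584, minus strand): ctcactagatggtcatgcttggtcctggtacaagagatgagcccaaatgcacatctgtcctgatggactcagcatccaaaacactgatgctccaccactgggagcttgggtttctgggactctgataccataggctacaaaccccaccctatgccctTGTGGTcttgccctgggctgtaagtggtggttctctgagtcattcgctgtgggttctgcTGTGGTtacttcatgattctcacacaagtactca
The motif was searched on both strands, and no other motif was searched. It occurs once before Cxcr3, from 110 bases before the start, and at 93 and 34 bases before the start of Gzmb. It is a common word, present in 4614 of 32851 promoters of the same length (14%), and a match is a description of these letters, not a binding site. Runx1 was found in 3 of the 83 proximal cells and Runx2 in 2.

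Beyond the identity and marker genes, the proximal profile was led by transcription factors. Tcf7, which encodes TCF1, the factor of naive and memory T cells, was found in 69 of 83 cells (83.1%, 73.3 to 90.5%), at 13.1 to 19.0 cycles with a median of 16.7. Zfp281, a zinc finger repressor, was found in 75.9%, and Eomes, the T-box factor of effector and memory CD8+ cells, in 48.2% with a median of 14.9 cycles. Foxp1 and Foxo1, forkhead factors of quiescence, were found in 36.1% and 28.9%. Klf2 was found in 37.3% (27 to 48.7%) with a median of 14.5 cycles, Tox, a factor linked to exhaustion and T cell development, in 36.1%, Irf4, which follows receptor signal strength, in 27.7%, and its relative Irf8 in 20.5%. The factors that mark later effector cells were near 0. Tbx21 and Zeb2 were found in 2 cells each, Prdm1, which encodes BLIMP1, in 1, and Id2 in 0 of 83. These factors were also rare in naive, first-division and day 3 cells. In that order Tbx21 was at 0%, 0.694% and 0.699%, and Zeb2 at 1.34%, 4.17% and 5.59%. Prdm1 was at 0%, 4.17% and 0%, and Id2 at 2.01%, 0% and 0%. Their low shares thus do not set the proximal cells apart from these populations. Tbx21 is not among the 66 assays ranked below over all 13 populations, so its share does not speak to stage.

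Among receptors, Il2ra, the α chain that raises the affinity for interleukin 2, was found in 32.5% (22.6 to 43.7%), at 12.7 to 17.8 cycles with a median of 14.3. Ifngr1, a chain of the interferon γ receptor, was found in 21.7%. Il7r was found in 1 of 83 cells (1.20%, 0.0305 to 6.53%), the lowest share of any of the 13 populations. The next was 1.27% of 79 day 5 short-lived effector cells, too close for the rank to set the proximal cells apart. Cd69, an early activation antigen, was found in 3 cells, and Il2 in 1 cell, the same one in both of its assay rows.

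Secreted effectors were sparse. The chemokine genes Xcl1, Cxcl10, Ccl4 and Ccl5 were found in 14.5%, 8.43%, 7.23% and 4.82% of proximal cells, and Ccl3 in 0 of 83. Ifng, the main effector cytokine of these cells, was found in 4 cells and Lif, a cytokine of the interleukin 6 family, in 8. Serpinb9, which protects T cells from their own granzyme B, was found in 10.8%. No proximal value of Serpinb9 or Ccl5 reached 12. Klrg1, the receptor of short-lived effectors, was found in 0 of 83 cells, beside 0% of naive, 1.39% of first-division and 0.699% of day 3 cells. In all, 11 of 95 assays were above 0 in at least 50% of proximal cells, 42 in at least 10%, 36 in fewer than 10% but at least 1 cell, and 17 in none.

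The proximal cells were then set against the naive cells, their starting state. Of the 95 assays, 14 (14.7%) were at least 20 points higher in share in proximal cells and 3 (3.16%) at least 20 points lower. The largest difference was in Myc, which was found in 10.7% of naive cells (6.26 to 16.9%) and 61.4% of proximal cells, 50.7 points more. Cxcr3 followed, at 42.8 points more than the 5.37% of naive cells. Other genes higher by that size were Eomes (37.5 points), Ccr7 (30.2), Il2rb (28.7), Il2ra (27.8) and the interferon regulatory factors Irf4 (27.7) and Irf8 (20.5), both of which were found in 0 of 149 naive cells (up to 2.01% by a limit of 3 cells, 2.45% by the exact interval). These 8 genes were at least 20 points higher against the earlier and against the later naive columns. At a value of 12 or more, 6 of the 8 kept that size, and Irf4 and Irf8 were higher by 16.9 and 18.1 points.

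Zfp281, Cd8a and Tox were higher by 30.3, 23.4 and 20.7 points, but missed that size against the earlier or the later naive columns. Cd28, a costimulatory receptor, Thy1, a surface antigen of T cells, and Lgals1, which encodes galectin 1, were higher by 41.5, 31.1 and 26.6 points. Their proximal values were low, with medians of 7.69, 9.30 and 8.98 cycles, and at a value of 12 or more their differences were −6.04, −16.9 and −0.671 points. Tox was higher by 17.1 points at that limit. The count of assays at least 20 points higher was then 8 in place of 14, namely Myc, Cxcr3, Eomes, Zfp281, Il2rb, Il2ra, Ccr7 and Cd8a.

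In the other direction, Klf2 was found in 79.9% of naive cells (72.5 to 86.0%) and 37.3% of proximal cells, a difference of −42.5 points. Where it was detected its median value was 14.5 cycles in proximal and 16.2 in naive cells. Il7r was found in 32.9% of naive cells, which makes a difference of −31.7 points. Both genes belong to the resting state. Tcf7, often grouped with them, was not lower over all columns, at 83.1% against 75.2%. Its proximal share was 70.7% in the earlier and 95.2% in the later columns. Each of the 3 assays that were lower kept that size against the earlier and the later naive columns.

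Counted by mean level, 3 assays (3.16%) were at least 1 cycle higher than in naive cells and 5 (5.26%) at least 1 cycle lower. The 3 were Myc (2.32 against 0.26 cycles), Cxcr3 (1.55 against 0.16) and Il2rb (1.72 against 0.69). Klf2 was lower by level too, at 0.96 against 3.25 cycles, and so were Il7r (0.04 against 1.31), R18s (14.17 against 15.78) and Ptprc (3.17 against 4.36). Il2rb missed the size of 1 cycle against the later naive columns (0.72 cycles). Il7r (−0.74) and R18s (−0.90) missed it against the earlier ones. Centring each cell on Actb and Gapdh moved every level difference by −0.43 cycles, which left Myc as the 1 assay higher (1.64 cycles) and 5 lower. R18s was low in proximal cells on this scale as well, and its part in these differences was not tested.

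**Figure D2:**
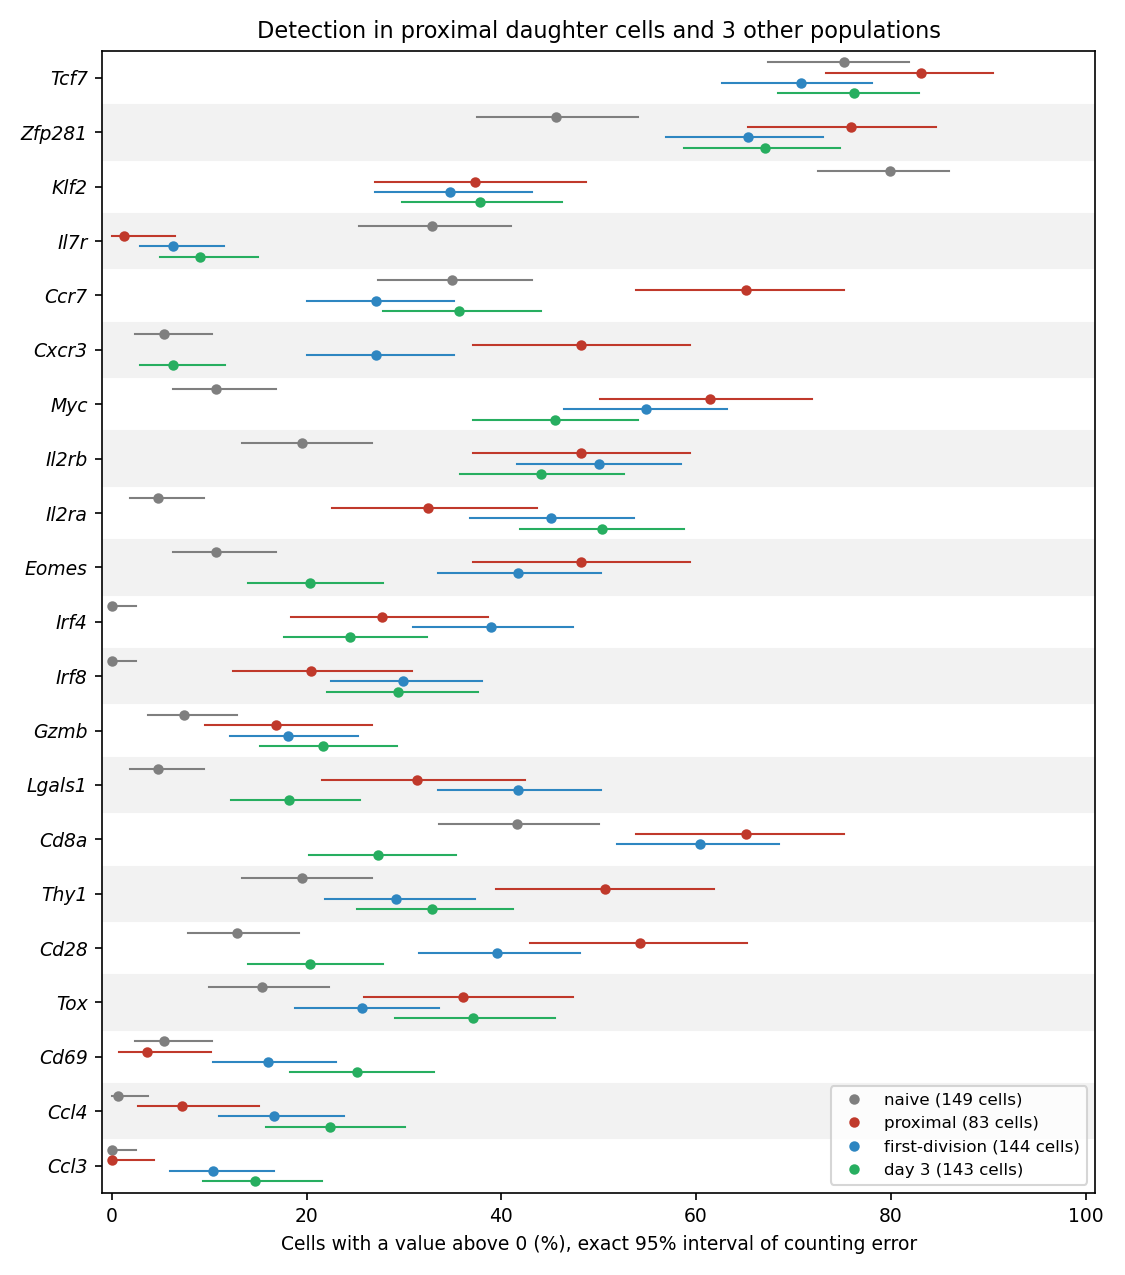
Share of cells above 0 (horizontal axis, percent) for 21 genes in the naive, proximal, first-division and day 3 populations, as points with exact 95% binomial intervals of counting error. The proximal interval lies to the right of the other 3 for Ccr7 (53.8 to 75.2%) and Cxcr3 (37.1 to 59.4%), and to the left of the naive one for Klf2 and Il7r.

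First-division cells are the closest in time, since both populations were taken at day 2. Of 95 assays, 3 (3.16%) were at least 20 points higher in share in proximal cells and 0 (0%) lower. Ccr7 differed by 38.0 points, from 27.1% (20.0 to 35.1%), and kept the size against the earlier (20.6 points) and later (55.3 points) first-division columns. Cxcr3 was higher by 21.1 points, but its share in first-division cells was 11.1% in the earlier and 43.1% in the later columns, so that the difference was 37.1 or 5.14 points. Thy1 was higher by 21.4 points with the low values already described, and its difference at a limit of 12 was −27.3 points.

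At that limit 5 assays were at least 20 points lower in proximal cells, in place of 0. Beside Thy1 they included Irf4 (−22.0 points), Cd28 (−20.8) and Lgals1 (−20.1). When any signal counted, Irf4 and Lgals1 differed by −11.2 and −10.3 points and Cd28 was higher by 14.6 points. Irf4 had a median of 12.3 cycles in proximal and 14.6 in first-division cells.

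The lower values were not limited to those genes. Over the 37 assays with at least 10 detected cells in both populations, the proximal median was lower than the first-division one in 33, and the median difference was −1.54 cycles. It was −1.65 against the earlier and −1.54 against the later columns. By mean level, 5 assays (5.26%) were at least 1 cycle lower and 0 (0%) higher, among them Il2ra (0.90 against 2.00 cycles), Cd8a (1.24 against 2.78) and Ptprc (3.17 against 4.87), and 2 reference genes, R18s (14.17 against 16.69) and Gapdh (3.40 against 4.73). Il2ra missed that size against the earlier first-division columns (−0.91 cycles). The median of Actb and Gapdh over cells was 17.6 cycles in proximal and 18.7 in first-division cells. Centring on these 2 genes moved every difference by 0.90 cycles and the split from 0 higher and 5 lower to 4 higher and 1 lower, with Cxcr3 (1.42), Ccr7 (1.30), Bmi1 (1.16) and Gata3 (1.01) the higher ones. The part of the reference genes' difference in this offset was not tested.

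Several genes that set naive and activated cells apart sat at shares within counting error of each other in the 2 populations. Myc was found in 61.4% of proximal and 54.9% of first-division cells, Il2rb in 48.2% and 50.0%, Eomes in 48.2% and 41.7%, and Klf2 in 37.3% and 34.7%. Gzmb, which had not reached the size against naive cells (9.48 points), was found in 16.9% and 18.1%. Each pair of intervals overlaps, which does not show that the populations are alike. Casp9, an initiator caspase, was found in 17.4% of first-division and 0 of 83 proximal cells, but in 33.3% of the earlier first-division columns against 1.39% of the later.

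Against day 3 cells, 5 assays (5.26%) were at least 20 points higher in share in proximal cells, and 1 (1.05%) lower. Cxcr3 was found in 6.29% of day 3 cells (2.92 to 11.6%), 41.9 points fewer than in proximal cells, and this was also the 1 assay (1.05%) at least 1 cycle higher in level, at 1.55 against 0.28 cycles. Cd8a was higher by 37.8 points, Cd28 by 33.9, Ccr7 by 29.4 and Eomes by 27.9. All 5 kept the size against the earlier and the later day 3 columns. Cd28 again lay below the limit of 12 in every proximal cell, and at that limit its difference was −9.79 points. The difference of Ccr7 there was 20.0 points, and the mean level of Ccr7 was higher by 0.13 cycles.

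Cd69, found in 25.2% of day 3 cells, differed by −21.6 points, with differences of −33.0 and −10.3 points against the earlier and later columns. The chemokine genes of the macrophage inflammatory protein family leaned the same way without reaching the size. Ccl3 was found in 0 of 83 proximal, 10.4% of first-division and 14.7% of day 3 cells, and Ccl4 in 7.23%, 16.7% and 22.4%. Where genes were detected, the proximal median value was lower than the day 3 one in 25 of 35 assays, with a median difference of −0.63 cycles, but 0.45 against the earlier and −1.39 against the later day 3 columns. No assay (0%) was at least 1 cycle lower in mean level. Centring on Actb and Gapdh moved all level differences by −0.73 cycles and moved that split from 1 higher and 0 lower to 0 higher and 15 lower, Il2ra (−1.55), Tox (−1.41) and Ccl4 (−1.35) among them.

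The gene lists describe the same 3 comparisons by function. Their counts stand beside the shares over all 95 assays, which were 14.7% higher and 3.16% lower against naive, 3.16% and 0% against first-division, and 5.26% and 1.05% against day 3 cells. Of 8 measured effector transcription factors, 3 were at least 20 points higher than in naive cells (Eomes, Irf4 and Irf8), 0 than in first-division cells and 1 than in day 3 cells (Eomes), and 0 were lower. At a limit of 12, Eomes alone of the 8 kept the size against naive cells. The list's median difference from naive cells was 6.81 points, beside 2.41 points over all 95 assays. Of 12 quiescence and memory factors, 1 was higher (Zfp281) and 1 lower (Klf2) than in naive cells, with a median of 3.51 points, and 0 differed by the size from either other population. Homing receptors held 2 of 5 higher and 1 lower than naive, 2 higher than first-division and 2 higher than day 3 cells, the higher 2 being Ccr7 and Cxcr3 in each case. The 6 cytokine and cytokine receptor genes had 2 higher (Il2ra and Il2rb) and 1 lower (Il7r) against naive cells and 0 against the others by share.

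The cytotoxic and effector list had 1 of 7 genes higher than naive, Lgals1, whose protein is a lectin and not a cytotoxic effector, a share near that of all assays and one that did not hold at a limit of 12. Its median difference was 4.15 points from naive and −2.27 points from first-division cells, beside −0.0502 points over all assays. The 5 chemokine genes had 0 members past the size in any of the 3 comparisons, with medians of 6.56, −9.07 and −8.62 points. Growth and metabolism held Myc as the 1 higher gene of 3 against naive cells, with Mtor at 8.43% and the glycolytic enzyme gene Hk2 in 3 proximal cells. The 7 genes of antigen receptor and inflammatory signalling held 0 past the size, with Rela, the NF-κB subunit p65, at 39.8% of proximal, 28.2% of naive, 45.1% of first-division and 36.4% of day 3 cells. Costimulation and inhibition genes gave 2 of 6 higher than naive (Cd28 and Tox, neither of them at a limit of 12). Against day 3 cells they gave 1 higher (Cd28, not at that limit) and 1 lower (Cd69). The 3 apoptosis genes, with Casp9 and the mitophagy gene Bnip3l among them, had 0 past the size in each comparison at any signal above 0. Of 4 lymphocyte identity genes, 2 were higher than in naive cells (Cd8a and Thy1), 1 than in first-division (Thy1) and 1 than in day 3 cells (Cd8a), and at a limit of 12 the differences of Thy1 were below 0. The 4 reference and proteasome genes and the 3 genes of other T cells had 0 past the size in share.

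To place the proximal cells between the other 3 populations, the 57 assays found in at least 10% of any of the 4 were ordered by share. The proximal share lay between the lowest and highest of the other 3 (ends included) in 33, above all of them in 17 and below all of them in 7. The nearest of the 3 was first-division in 23 assays, day 3 in 22 and naive in 12, with ties such as the 3 reference genes given to naive. The mean absolute difference in share was 7.29 points from first-division, 9.28 from day 3 and 14.3 from naive cells, beside 6.12 points between the earlier and later proximal columns. Il2ra is an example of a gene between, at 4.70% of naive, 32.5% of proximal, 45.1% of first-division and 50.3% of day 3 cells. Ccr7 lay farthest above, 29.4 points over the next of the 3, and Rpl35 farthest below.

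Over all 13 populations, 66 assays were found in at least 10% of one population. Apart from the 3 reference genes found in every cell, the proximal share was the highest of the 13 in 10 assays. They were Ccr7 (65.1%, next 35.7%), Tcf7 (83.1%, next 76.2%), Myc (61.4%, next 54.9%), Eomes (48.2%, next 41.7%), Zfp281 (75.9%, next 67.1%), the Polycomb gene Bmi1 (20.5%, next 15.2%), Cd8a, the proteasome gene Psmb7, Tcf12 and the TNF receptor gene Tnfrsf1b. Ccr7 is the one whose interval (53.8 to 75.2%) stood clear of that of the next population (27.8 to 44.1%) among the 5 listed first. At a limit of 12 the proximal share stayed highest in 6 of the 10, namely Ccr7, Tcf7, Myc, Eomes, Zfp281 and Bmi1. In the earlier proximal columns Tcf7 was at 70.7% and Eomes at 39.0%, below the 76.2% and 41.7% of the next populations.

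Each proximal cell was also assigned to the nearest of the naive, first-division and day 3 mean profiles over all assays. By level, 52 of 83 cells (62.7%, 51.3 to 73.0%) were nearest to day 3, 21 (25.3%) to first-division and 10 (12%) to the naive profile. By detection alone the order turned, with 52 cells (62.7%) nearest to first-division, 17 (20.5%) to naive and 14 (16.9%) to day 3. Correlation of levels gave 43 cells (51.8%) to first-division and 26 (31.3%) to day 3, and centred levels gave 47.0% and 36.1%. Leaving out R18s, Actb and Gapdh kept day 3 first, at 57.8%. By level, 89.9% of naive, 66.0% of first-division and 60.8% of day 3 cells were nearest to their own population's profile with the cell itself left out, so the last 2 profiles are separated less well than the naive one. After centring 38.3% of naive cells were nearest to their own profile, and by detection 47.6% of day 3 cells were.

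**Figure D3:**
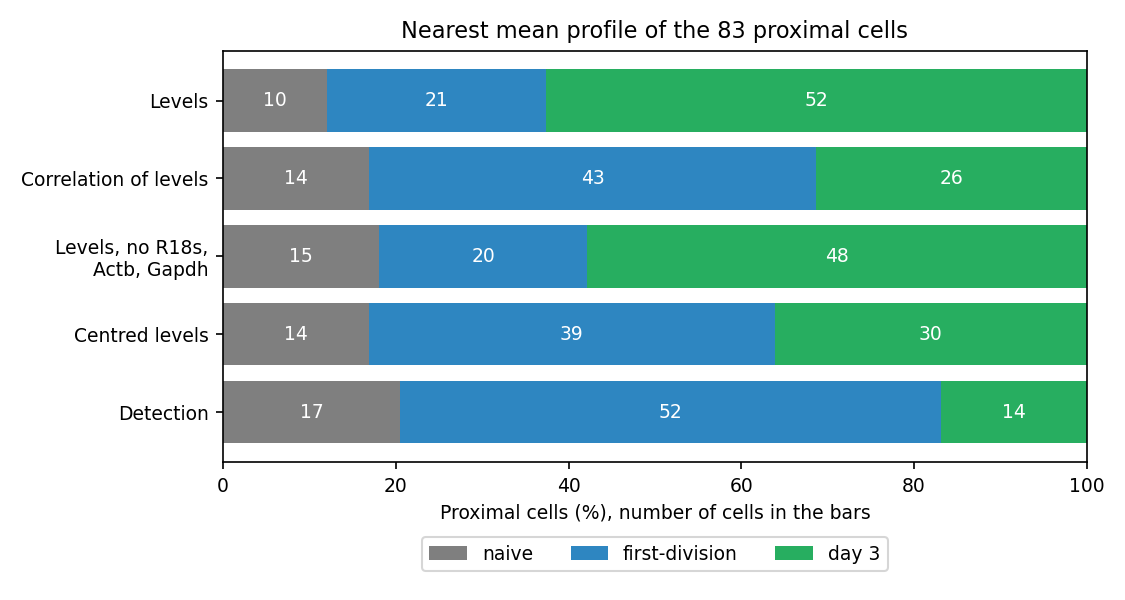
Proximal cells assigned to the nearest mean profile of the naive, first-division or day 3 cells (horizontal axis, percent of 83 cells; numbers in the bars are cells), by 5 measures of nearness. The share nearest to first-division was 25.3% by level and 62.7% by detection, and the share nearest to day 3 was 62.7% and 16.9%.

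The 3 groups of proximal cells made by level differed in the genes that had set the distance, which is a description and no test. The 10 cells nearest to naive had Klf2 in 9 and Myc in 0. The 21 nearest to first-division had Myc in 18, Ccr7 in 18, Il2ra in 16 and a median of 24.0 assays above 0. The 52 nearest to day 3 had Myc in 33, Il2ra in 10, Klf2 in 12 and a median of 17.0 assays. Tcf7 was found at similar rates in the 3, in 8 of 10, 18 of 21 and 43 of 52 cells.

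The number of assays detected in a proximal cell moved with the height of its reference genes. Spearman's rho between that number and the mean of Actb and Gapdh was 0.65 over the 83 cells, 0.59 in first-division, −0.013 in naive and −0.020 in day 3 cells. These points share a sample, so the coefficients are descriptions. In each pair given below with a phi coefficient, the proximal cells with both genes had a higher median number of assays above 0 than the other proximal cells, and its part in those pairs was not tested.

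The 5 marker genes were counted per cell. At least 3 of them were found in 38 of 83 proximal cells (45.8%, 34.8 to 57.1%), in 22.9% of first-division (16.3 to 30.7%), 17.5% of day 3 (11.6 to 24.7%) and 3.36% of naive cells. The proximal share was 41.5% in the earlier and 50.0% in the later columns. All 5 were found together in 2 proximal cells, and none in 5. The commonest count in proximal cells was 2, in 25 cells. These counts take in the Ccr7 and Cxcr3 differences given above, and the 5 genes were chosen with earlier results of these data known. They are thus a description and no support for the label. All use any value above 0, and at a limit of 12 Ccr7 was found in 49.4% of proximal cells.

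**Figure D4:**
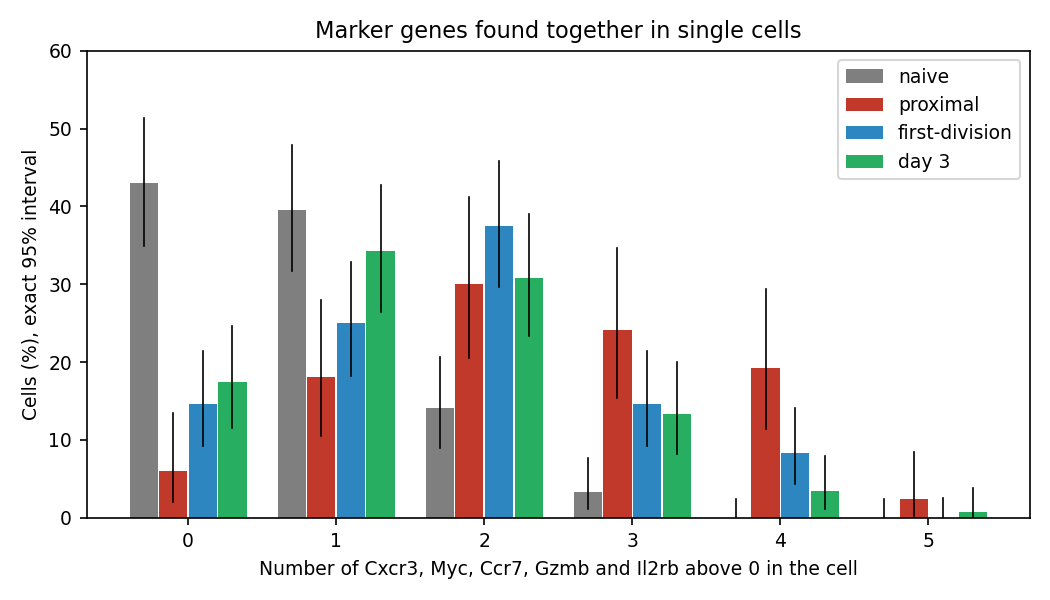
Number of the 5 marker genes above 0 in the same cell (horizontal axis) against the percentage of cells with that number (vertical axis, bars, with exact 95% binomial intervals as lines) in the naive, proximal, first-division and day 3 populations. Proximal cells make up the tallest bar at 3 genes (24.1%) and at 4 genes (19.3%), and naive cells at 0 genes (43.0%).

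Cxcr3 and Ccr7, receptors that guide cells towards inflamed tissue and towards lymph nodes, were found together in 30 proximal cells (36.1%, 25.9 to 47.4%). The same combination was found in 4.17% of first-division (1.54 to 8.85%), 3.50% of day 3 and 0.671% of naive cells. In first-division cells the 2 genes were mostly read in different columns, where the earlier ones had Ccr7 in 44.4% and Cxcr3 in 11.1%, and the later ones 9.72% and 43.1%. The association within the proximal cells was modest. Ccr7 was found in 30 of 40 cells with Cxcr3 and in 24 of 43 without, a phi coefficient of 0.20, where phi is the correlation of 2 yes-or-no values and 0 means no association. It was 0.10 in the earlier and 0.29 in the later columns and −0.01 at a limit of 12.

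Genes linked to naive or memory cells were also found in the same cells as Myc or Eomes. Of these, Tcf7 was common in 75.2% of naive, 83.1% of proximal, 70.8% of first-division and 76.2% of day 3 cells. It therefore does not mark a resting state here. Myc was found in 10.7% of naive cells, which bounds its pairs there. Myc and Tcf7 were found together in 45 of 83 proximal cells (54.2%, 42.9 to 65.2%), against 41.7% of first-division, 31.5% of day 3 and 7.38% of naive cells. Their phi in proximal cells was 0.17 (0.08 in the earlier and 0.32 in the later columns). Tcf7 and Eomes were found together in 34 cells (41.0%, 30.3 to 52.3%), against 34.0%, 14.7% and 7.38%, and in proximal cells Tcf7 was in 34 of 40 cells with Eomes and 35 of 43 without. Myc with Klf2 was rarer, in 16 cells (19.3%), with a phi of −0.16 in proximal, −0.28 in first-division and −0.31 in day 3 cells.

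Among the 26 assays found in 20 to 80% of proximal cells there are 325 pairs. Their phi had a median of 0.08 and ran from −0.23 to 0.44, and 242 pairs (74.5%) were above 0. A phi of at least 0.2 was reached by 48 pairs (14.8%), of which 24 reached it in the earlier and in the later columns, and 1 pair was at −0.2 or below before rounding. With so many pairs and 83 cells of unequal numbers of detected assays, single values are descriptions.

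**Figure D5:**
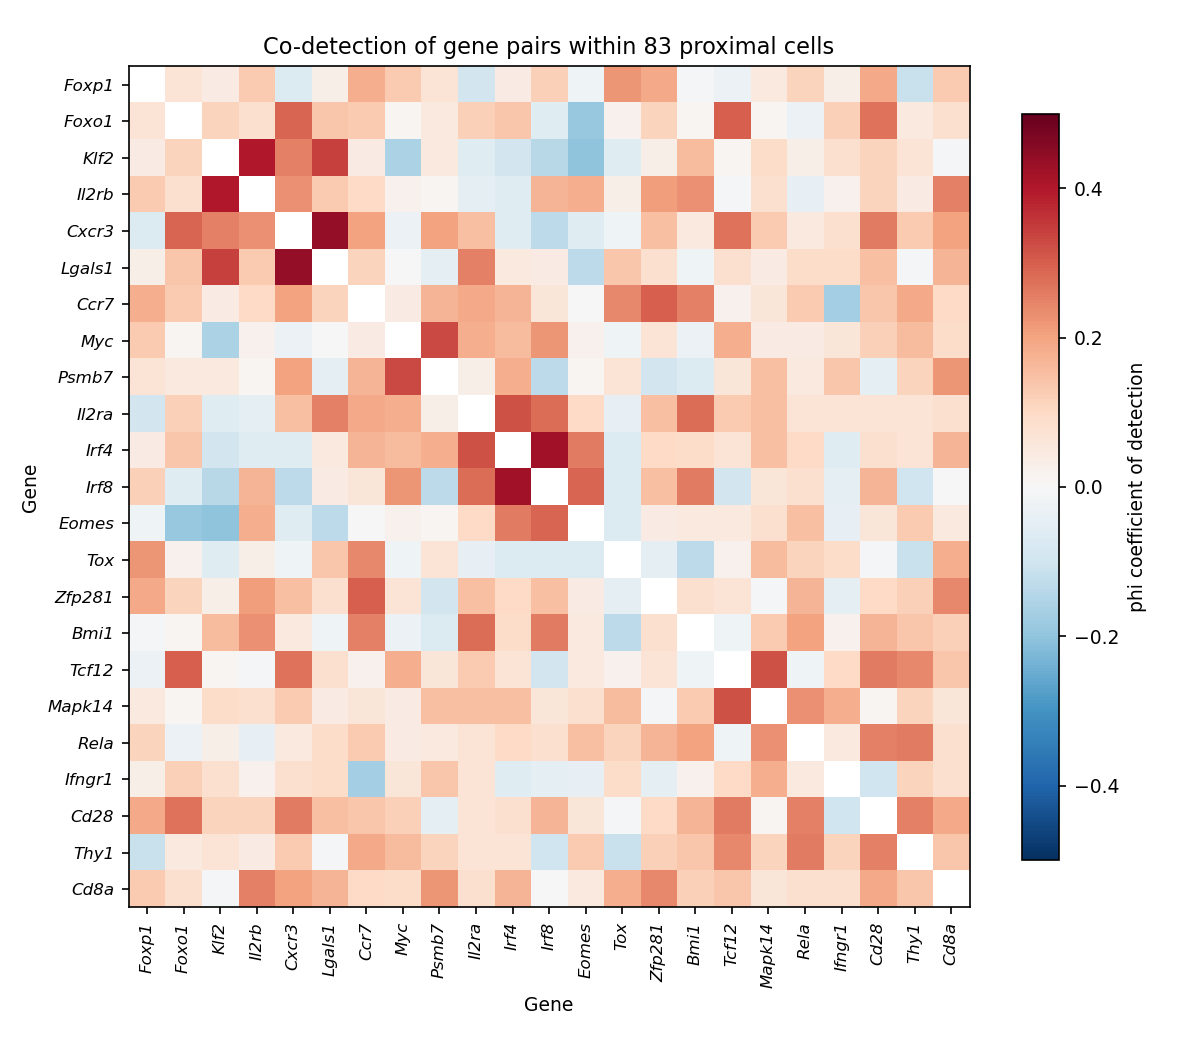
Phi coefficient of co-detection (colour, blue below 0 and red above 0) for pairs of 23 genes found in 20 to 80% of the 83 proximal cells, with genes on both axes. The darkest red squares are Cxcr3 with Lgals1 (0.44), Irf4 with Irf8 (0.42) and Il2rb with Klf2 (0.40).

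The strongest pair was Cxcr3 with Lgals1. Lgals1 was found in 21 of 40 proximal cells with Cxcr3 and in 5 of 43 without, a phi of 0.44 (0.40 in the earlier and 0.47 in the later columns), against 0.28 in first-division and 0.03 in day 3 cells. All Lgals1 values in proximal and day 3 cells were below 12, while 20.1% of first-division cells reached that value. Irf4 and Irf8 came next, with Irf8 in 11 of 23 cells with Irf4 and in 6 of 60 without. Their phi was 0.42 in proximal, 0.23 in first-division and 0.35 in day 3 cells. The pair was picked for its proximal value with earlier results of these data known, so these values are descriptions. Irf4 with Il2ra was likewise positive in these 3 populations, at 0.32, 0.36 and 0.31. In proximal cells Il2ra was found in 13 of 23 cells with Irf4 and in 14 of 60 without.

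Il2rb with Klf2 was the one pair of the 8 highest that was below 0 in all 3 other populations. Klf2 was found in 23 of 40 proximal cells with Il2rb (57.5%, 40.9 to 73.0%) and in 8 of 43 without (18.6%, 8.39 to 33.4%), a phi of 0.40. It was 0.36 in the earlier and 0.45 in the later columns and 0.36 at a limit of 12. In first-division, day 3 and naive cells the same pair had a phi of −0.09, −0.20 and −0.05, and within first-division cells it was −0.21 in the earlier and 0.00 in the later columns. Since the pair was picked for its value in proximal cells, the difference in sign is a description and was not tested. Klf2 was also found more often with Lgals1 (phi 0.34, with 16 of 26 against 15 of 57 cells) and with Cxcr3 (0.25, with 20 of 40 against 11 of 43).

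Other high pairs joined Myc with Psmb7, a proteasome subunit gene (0.33), and the kinase gene Mapk14 with Tcf12, an E protein gene (0.32). Myc with Psmb7 was at −0.01 in first-division cells (0.14 in the earlier and −0.16 in the later columns). In day 3 cells it was at 0.20, but at 0.03 in the earlier and 0.12 in the later columns. Among the lowest pairs were Eomes with Klf2 (−0.20) and Foxo1 with Eomes (−0.19). Eomes was found in 8 of 24 proximal cells with Foxo1 and in 32 of 59 without. In first-division and day 3 cells Foxo1 with Eomes was at 0.07 and 0.21.

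The chains of the interleukin 2 receptor gave a value near 0. Il2ra and Il2rb were found together in 12 proximal cells (14.5%, 7.70 to 23.9%), with a phi of −0.05 (−0.10 in the earlier and −0.00 in the later columns). In first-division cells both were found in 29.9% (22.5 to 38.0%) with a phi of 0.29, and in day 3 cells in 31.5% (24.0 to 39.8%) with a phi of 0.37. The β chain without the α chain was found in 28 proximal cells (33.7%), in 20.1% of first-division and in 12.6% of day 3 cells. Il2ra with Klf2 was at −0.06 in proximal cells, −0.25 in first-division and −0.47 in day 3 cells, and Irf4 with Klf2 at −0.09, −0.40 and −0.34. Myc with Il2ra was at 0.18, 0.37 and 0.37 in the same order, and Myc with Cxcr3 at −0.03, 0.02 and 0.17. Gzmb was found in 8 of 27 proximal cells with Il2ra and in 6 of 56 without, a phi of 0.24 (0.26 in the earlier and 0.23 in the later columns), while Gzmb with Cxcr3 (0.21, with Cxcr3 in 10 of 14 cells with Gzmb and in 30 of 69 without) was at 0.47 in the earlier and −0.02 in the later columns.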

How the data were processed

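The deposited values of 95 assay rows in 1449 cells are on a log2 scale, in PCR cycles. Per the labels, single cells were sorted into a reverse transcription mix, preamplified for 18 cycles with pooled TaqMan assays, diluted 5-fold and run on dynamic arrays, and the values are called Ct and not normalized. They grow with abundance (0 to 35.0, R18s highest) and were read as 40 minus Ct, where 40 is a choice made from these values. Of the rows, 93 were matched to RefSeq (GRCm38.p6) by accession for names.

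Shares, phi coefficients and mean levels above 12 were computed with Python 3.11.15, numpy 2.4.6 and scipy 1.17.1, and checked on simulated data. Genes named are those in at least 10% of proximal cells, the 12 largest differences past the size in each direction and comparison, and members of 13 lists. Pairs are the 8 highest and 4 lowest phi and those among Myc, Cxcr3, Ccr7, Il2rb, Il2ra, Klf2, Tcf7, Irf4 and Gzmb. The members, lists and pairs were chosen with earlier results of these data known. No 2 columns were identical. The number of cells limits the precision. Some assays enter the counts but are not reported here by name.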

Additional observations from a re-analysis of the deposited data

How the results depend on the processing

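No paired analysis was possible because each population is 1 sample. Of 102 values under alternatives, 63 stayed within the tolerance (1.5-fold for counts, the exact interval for shares) and 39 moved. None was called reversed, but counts and shares have no sign, so none could be. The order of the nearest profiles did turn under some measures. After centring, the split of higher and lower levels turned against first-division and day 3 cells. Settings that used the earlier or later columns of the other population were added after seeing the data. The cause of the moves was not tested, apart from looser or stricter sizes, which count more or fewer assays by construction.

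Against naive cells, assays higher in share numbered 14, and 8 at a limit of 12. Those higher in level numbered 3, but 32 with no limit, 1 after centring and 6 against the earlier naive columns. Those lower in level numbered 5, and 3 against the earlier naive columns.

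Against first-division cells, assays higher in share numbered 3, but 1 for the earlier proximal columns, 5 against the earlier and 1 against the later first-division columns. Those lower in share numbered 0, but 5 at a limit of 12, 1 for cells with at least 10 assays, 2 at a size of 15 points, and 2 and 1 against the earlier and later columns. Those higher in level numbered 0, but 4 with no limit, 4 after centring and 1 against the earlier columns. Those lower in level numbered 5, but 21 with no limit, 1 after centring and 10 against the earlier columns.

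Against day 3 cells, assays higher in share numbered 5, but 8 at 15 points and 9 against the later columns. Those lower in share numbered 1, but 2 at a limit of 12, 2 for the later proximal columns, 4 at 15 points and 3 against the earlier columns. Those higher in level numbered 1, but 15 with no limit, 0 after centring and 3 against the earlier columns. Those lower in level numbered 0, but 13 with no limit, 15 after centring, 1 for the later proximal columns and 2 against the later day 3 columns.

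The share of proximal cells nearest to first-division was 25.3% by level, 62.7% by detection, 51.8% by correlation and 47.0% after centring. The share nearest to day 3 was 62.7%, 16.9%, 31.3% and 36.1%. Gene pairs with a phi of at least 0.2 numbered 48, and 30 of the 276 that could be computed at a limit of 12. A gene found in 0 of 83 cells can have a share of up to 3.61% by a limit of 3 cells and 4.35% by the exact interval.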
